A study of Mus musculus with 12 samples.

Results

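The VEGF, angiopoietin and apelin signals are secreted factors, with some of their receptors, through which the cells of the heart direct the growth and upkeep of blood and lymph vessels. The members were the 10 genes Vegfa, Vegfb, Vegfc, Figf, Pgf, Angpt1, Angpt2, Apln, Aplnr and Flt4, found as the probes that carry these names in the scanner files. They were 10 of the 34844 gene names on the array and 10 of the 18021 with a probe above background, and each member was well above background on all 12 arrays. RNA came from the left ventricle (free wall with apex, without the septum) of mice aged 6 months and was hybridised to one-colour Agilent arrays, with 4 arrays in each of 3 groups. Nkx2-5Δtrab mice were exposed to tamoxifen, injected into the pregnant mother, at E10.5 and then E11.5, when trabeculae form, and Nkx2-5Δcomp mice at E13.5 and then E14.5, when they compact (E is the embryonic day). All groups carried the Floxed-Nkx2-5-ΔNeo allele and the mutants also Cx40-creERT2, which sits in the Cx40 gene, so the cardiac transcription factor Nkx2-5 was removed in cells in which Cx40 drove Cre at the time of tamoxifen, and in their descendants. By the study's tracing with a reporter, muscle cells of this origin reach into the compact myocardium after the early injections and lie in the inner wall after the late ones, while the RNA here is that of the whole wall. The labels describe the controls as not injected, and the methods describe them as Nkx2-5-ΔNeo fl/fl:Cx40+/+ littermates, without Cre, so the deletion, the Cre allele and, if the labels hold, tamoxifen cannot be told apart. Mice exposed to tamoxifen were delivered by caesarean and raised by foster mothers. All control and Nkx2-5Δcomp arrays lay on 1 slide and all Nkx2-5Δtrab arrays on another, so slide and Nkx2-5Δtrab cannot be told apart, whereas Nkx2-5Δcomp was compared with control within a slide. Nothing in the labels says which mice shared a litter, so p-values measure the spread between these samples.

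VEGF ligands bind receptor tyrosine kinases on endothelial cells: Vegfa, the main driver of sprouting of blood vessels, signals through Kdr and Flt1, Vegfb and Pgf bind Flt1, and Vegfc and Figf (the gene of VEGF-D, now named Vegfd) bind Flt4, the receptor that guides lymphatic growth. Angpt1 activates the receptor Tek and steadies vessels, and Angpt2 can oppose it. Apelin, the peptide encoded by Apln, acts on the G protein-coupled receptor Aplnr, which is found on endothelial and muscle cells of the heart.

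The promoter windows of Figf, of the related ligand Vegfc and of their shared receptor Flt4 are shown because these genes form a single ligand and receptor group and only Figf of the members passed the test below. They are the RefSeq windows of build GRCm38.p6, 250 bases before to 50 after the start site, 5′ to 3′ on the gene's strand, and all are on the plus strand. Capitals mark AAGTG, the core of the site that Nkx2-5 binds, on either strand.
Figf, chrX:164373272-164373571: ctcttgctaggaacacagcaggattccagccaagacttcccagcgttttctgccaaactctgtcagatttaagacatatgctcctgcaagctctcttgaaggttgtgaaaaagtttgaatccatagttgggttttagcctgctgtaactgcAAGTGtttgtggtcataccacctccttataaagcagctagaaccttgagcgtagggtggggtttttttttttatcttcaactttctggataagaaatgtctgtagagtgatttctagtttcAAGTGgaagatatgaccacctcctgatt
Vegfc, chr8:54077282-54077581: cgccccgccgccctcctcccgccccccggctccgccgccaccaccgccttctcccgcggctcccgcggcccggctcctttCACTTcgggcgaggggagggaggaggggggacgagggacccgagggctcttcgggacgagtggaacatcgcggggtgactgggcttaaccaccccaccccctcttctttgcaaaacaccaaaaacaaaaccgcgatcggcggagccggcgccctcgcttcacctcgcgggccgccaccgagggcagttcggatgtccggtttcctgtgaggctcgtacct
Flt4, chr11:49609429-49609728: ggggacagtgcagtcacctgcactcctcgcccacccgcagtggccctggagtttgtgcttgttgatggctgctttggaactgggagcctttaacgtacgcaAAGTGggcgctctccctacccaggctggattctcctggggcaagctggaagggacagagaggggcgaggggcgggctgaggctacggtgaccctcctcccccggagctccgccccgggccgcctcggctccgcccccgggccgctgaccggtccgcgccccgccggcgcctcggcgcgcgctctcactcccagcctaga
The Figf window held the core at 2 places, the Vegfc window at 1 and the Flt4 window at 1. Of 32841 promoter windows searched the same way, 46.4% held at least 1 match and 13.7% held 2 or more. The longer form TNAAGTG, which contains the core, was found once in the Figf window, starting 20 bases after the first transcribed base, and in 3789 of the 32841 windows. The core of the hypoxia response site, ACGTG, and the AP-1 site, TGANTCA, were in none of these 3 windows, against 19.6% and 7.81% of all windows. Windows existed for 7 of the 10 members; Angpt1, Angpt2 and Aplnr had none. A match describes the letters only, since no binding was measured here.

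The targeted gene was lower on the arrays labelled as mutant. The log2 signal of Nkx2-5 was 11.88 to 12.23 on the control arrays, 11.12 to 11.62 on the Nkx2-5Δcomp arrays and 11.21 to 11.67 on the Nkx2-5Δtrab arrays. All 8 mutant arrays lay below all controls, and 3.88% of all probes had no overlap in that comparison. The change was -0.65 in Nkx2-5Δtrab (limma, adjusted p = 0.0471) and -0.59 in Nkx2-5Δcomp, which did not pass an adjusted p of 0.05 (limma, adjusted p = 0.107). Each pair of arrays correlated at 0.968 or more over all probes. Nkx2-5Δcomp replicates 3 and 4 and Nkx2-5Δtrab replicate 4 were picked by their low Aplnr, after the values were seen. The first principal component (29.2% of the variance) also set these 3 apart from the other 9 arrays. For the members other than Angpt1, read from their brightest probe, changes from control that moved by over 1.5 times without these 3 arrays are given both ways. Changes of genes other than the members are given over all 12 arrays. The summed signal of 8 cardiomyocyte markers (log2 of the sum of their linear signals) lay between 19.91 and 20.08 on every array, and all 8 were measured.

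Figf was the only member that passed the test, and it was higher in both mutants. Its log2 signal was 8.82, 8.36, 8.52 and 8.55 on the control arrays. It was 9.21, 9.23, 9.94 and 9.50 on the Nkx2-5Δcomp arrays and 9.58, 9.86, 9.49 and 9.95 on the Nkx2-5Δtrab arrays. Every mutant array was above every control array, and the mutants overlapped each other. Against control, Figf rose by 1.16 ± 0.17 (log2, SE) in Nkx2-5Δtrab, a 2.23-fold rise (limma, adjusted p = 0.00845 over all 24593 probes). It rose by 0.91 ± 0.17 in Nkx2-5Δcomp, a 1.87-fold rise (limma, adjusted p = 0.047). For both mutants together the rise was 1.03 ± 0.15 (adjusted p = 0.00634, limma), and the exact permutation test over the 12 arrays gave the smallest p it allows, 0.00202. The mutants themselves differed by 0.25, with a 95% interval of -0.13 to 0.63 (limma, adjusted p = 0.94). In bulk tissue, more RNA per cell and more cells that make it cannot be told apart, for this gene and for those below.

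The call for Nkx2-5Δtrab held in all 22 alternative settings, while the call for Nkx2-5Δcomp held in 4 of 22, with the rise between 0.65 and 0.99. Leaving out any 1 array of the series took the adjusted p for Nkx2-5Δcomp to between 0.0526 and 0.122 (limma). Without the 3 arrays that stood apart, Figf was 1.08 higher in Nkx2-5Δtrab (limma, adjusted p = 0.0151) and 0.65 higher in Nkx2-5Δcomp (adjusted p = 0.213, limma). The probe, at chrX:160840395-160840454 (mm9), was printed at 10 spots, and the SD between the 8 to 10 usable spots of an array was 0.03 to 0.09. That SD describes copies of the probe on 1 array and not the spread between mice. Between the arrays of a group the SD was 0.19 to 0.34. Figf is on the X chromosome, and signal of Y-linked genes was found on 1 of 4 control, 3 of 4 Nkx2-5Δcomp and 2 of 4 Nkx2-5Δtrab arrays. In each group the arrays with that signal were the higher ones for Figf, at 8.82 against 8.36 to 8.55 in control, 9.23 to 9.94 against 9.21 in Nkx2-5Δcomp and 9.86 to 9.95 against 9.49 to 9.58 in Nkx2-5Δtrab. With sex in the model the rise was 1.07 in Nkx2-5Δtrab (limma, adjusted p = 0.00391) and 0.73 in Nkx2-5Δcomp (limma, adjusted p = 0.0582).

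**Figure D1:**
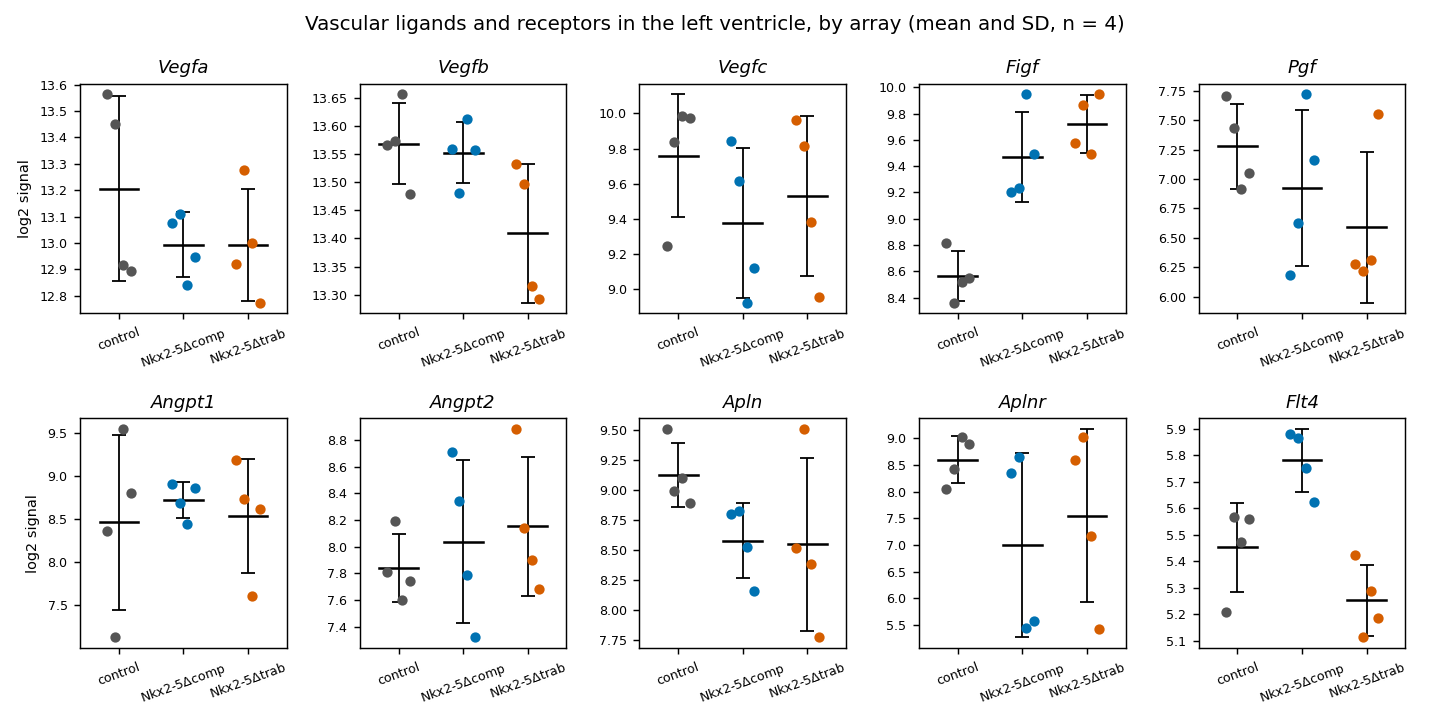
Log2 signal of each of the 10 genes on the 12 arrays (points), with the group mean (line) and SD (bar), n = 4; the vertical axis differs between panels. The 8 mutant points of Figf lie between 9.21 and 9.95, above all control points, and Aplnr splits within each mutant group.

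The single call among 10 members is set against the share of all probes called, which was 1.67% for Nkx2-5Δtrab, 0.606% for Nkx2-5Δcomp, 1.89% for both together and 0% for the comparison of the mutants, where 1419 probes had an unadjusted p under 0.05 in limma. The median log2 change of the 10 members was -0.21 in Nkx2-5Δtrab and -0.11 in Nkx2-5Δcomp, beside -0.02 and -0.03 over all probes. Groups that did not overlap were found for 1 member in Nkx2-5Δtrab, 3 in Nkx2-5Δcomp, 1 for both mutants together and 1 between the mutants. Over all probes the shares without overlap were 9.96%, 9.32%, 3.88% and 3.12%.

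**Figure D2:**
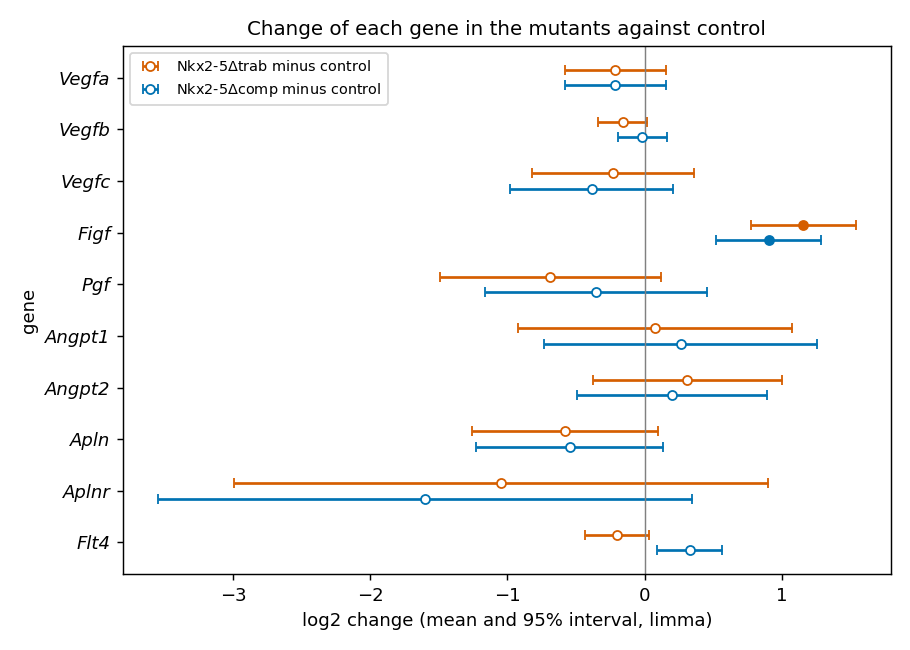
Log2 change against control of each gene in Nkx2-5Δtrab and Nkx2-5Δcomp, with the 95% interval from limma; filled points passed an adjusted p of 0.05. Only the Figf points are filled, and the intervals of Aplnr are the widest.

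The ligands of blood vessel growth showed no call. Vegfa, by its brighter probe, was at 13.56, 13.45, 12.91 and 12.89 in control, 13.08, 13.11, 12.84 and 12.95 in Nkx2-5Δcomp and 12.92, 13.28, 12.999 and 12.77 in Nkx2-5Δtrab. The groups overlapped, with changes of -0.21 in each mutant and 95% intervals of -0.58 to 0.15 in Nkx2-5Δtrab and -0.58 to 0.16 in Nkx2-5Δcomp. Without the 3 arrays that stood apart the changes were -0.14 and -0.11. A second Vegfa probe gave -0.19 and -0.26 (limma, adjusted p = 0.507 and 0.402). Vegfb, a ligand of Flt1 that is abundant in heart muscle, had the narrowest spread, at 13.57, 13.57, 13.66 and 13.48 in control and 13.56, 13.48, 13.61 and 13.56 in Nkx2-5Δcomp. On the Nkx2-5Δtrab arrays Vegfb was at 13.53, 13.496, 13.32 and 13.29, a change of -0.16 with an interval of -0.34 to 0.02. The change in Nkx2-5Δcomp was -0.02, with an interval of -0.19 to 0.16, and -0.05 without the 3 arrays. Placental growth factor, the product of Pgf, was at 7.70, 7.43, 6.92 and 7.05 in control, 6.18, 6.62, 7.72 and 7.16 in Nkx2-5Δcomp and 6.28, 6.22, 6.31 and 7.55 in Nkx2-5Δtrab. The mean of Pgf differed from control by -0.69 in Nkx2-5Δtrab and by -0.35 in Nkx2-5Δcomp (limma, adjusted p = 0.386 and 0.682). The mutant arrays that reached the control range or went above it, at 7.16, 7.55 and 7.72, were the 3 that stood apart, and the other 5 were all below every control. Without these 3 the differences were -1.01 and -0.87 (limma, adjusted p = 0.0619 and 0.283).

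Neither angiopoietin passed the test. Angpt1 was at 8.36, 7.13, 9.55 and 8.81 in control, a range that held every Nkx2-5Δcomp value (8.90, 8.68, 8.45 and 8.86) and every Nkx2-5Δtrab value (9.18, 8.73, 7.61 and 8.62). Its interval was -0.92 to 1.07 in Nkx2-5Δtrab, so changes within that range could not be seen, and leaving out control replicate 2 turned the sign. Angpt2 was at 7.81, 8.20, 7.60 and 7.74 in control, 8.71, 8.34, 7.79 and 7.32 in Nkx2-5Δcomp and 8.89, 8.14, 7.90 and 7.68 in Nkx2-5Δtrab. The means were 0.31 and 0.20 above control in Nkx2-5Δtrab and Nkx2-5Δcomp, with adjusted p = 0.671 and 0.795 (limma). Mutant arrays lay on both sides of the control range of Angpt2. Without the 3 arrays the differences were 0.47 and 0.69 (limma, adjusted p = 0.39 and 0.578).

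Flt4, the receptor of Vegfc and Figf, was dim on all arrays but above background. It was at 5.21, 5.57, 5.47 and 5.56 in control, 5.88, 5.86, 5.75 and 5.62 in Nkx2-5Δcomp and 5.42, 5.11, 5.29 and 5.19 in Nkx2-5Δtrab. The Nkx2-5Δcomp arrays lay above all others and the Nkx2-5Δtrab arrays overlapped control. Nkx2-5Δcomp exceeded control by 0.33 ± 0.11 (limma, adjusted p = 0.237) and Nkx2-5Δtrab minus Nkx2-5Δcomp was -0.53 ± 0.11 (limma, adjusted p = 0.27). Neither passed the test. The exact permutation test gave 0.0286 for both, the smallest p that 4 arrays against 4 can give. The second of these differences also lies between slides, and the mutant and the slide cannot be told apart in it. Its size depended on the processing, at -0.266 with normexp background correction and -0.336 with the authors' values (limma, adjusted p = 0.21 and 0.741). Nkx2-5Δcomp minus control was 0.21 and 0.24 in the same settings. Flt4 marks lymphatic endothelium, and the summed signal of the other lymphatic markers was 9.99 to 10.05 in control, 9.54 to 9.86 in Nkx2-5Δcomp and 9.59 to 9.94 in Nkx2-5Δtrab. Of 4 measured lymphatic markers only Mmrn1, a protein of lymphatic endothelium, passed the test. It was at -0.69 in Nkx2-5Δtrab (limma, adjusted p = 0.0312) and -0.54 in Nkx2-5Δcomp (limma, adjusted p = 0.118). Over both mutants it was at -0.61 (limma, adjusted p = 0.0248). Prox1 was at -0.54 and -0.39, Lyve1 at -0.18 and 0.03 and Pdpn at -0.0047 and -0.39 in Nkx2-5Δtrab and Nkx2-5Δcomp. On the 3 arrays that stood apart Prox1 was at 7.67, 7.38 and 6.88, against 7.46 to 8.29 on the other arrays.

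Aplnr had the largest mean difference from control of the members in Nkx2-5Δcomp, and in each mutant the largest spread within a group (SD 1.73 and 1.63 in Nkx2-5Δcomp and Nkx2-5Δtrab, against 0.44 in control). It was at 8.06, 8.43, 9.02 and 8.89 in control, 8.35, 8.64, 5.44 and 5.57 in Nkx2-5Δcomp and 8.59, 9.03, 7.16 and 5.42 in Nkx2-5Δtrab. The mean differed from control by -1.60 in Nkx2-5Δcomp (SE 0.89, adjusted p = 0.448, limma) and by -1.05 in Nkx2-5Δtrab (limma, adjusted p = 0.602). The low values were those of the 3 arrays that stood apart, at 5.42 to 5.57 against 7.16 to 9.03 on the other 9. Without these 3 the difference was -0.10 in Nkx2-5Δcomp and -0.34 in Nkx2-5Δtrab (limma, adjusted p = 0.984 and 0.74). The 3 arrays had been picked by their low Aplnr, so for this gene the smaller difference follows from the choice and tests nothing.

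Vegfc was also low on these 3 arrays. Apln ranged lower there but with overlap, at 7.77 to 8.53 against 8.39 to 9.51 on the other 9. Vegfc was at 9.24, 9.84, 9.99 and 9.97 in control, 9.84, 9.61, 8.92 and 9.12 in Nkx2-5Δcomp and 9.96, 9.82, 9.38 and 8.95 in Nkx2-5Δtrab, and the 3 arrays held its 3 lowest values (8.92 to 9.12 against 9.24 to 9.99). Its change from control was -0.39 in Nkx2-5Δcomp and -0.23 in Nkx2-5Δtrab (limma, adjusted p = 0.538 and 0.721), and -0.03 and -0.04 without the 3 arrays. With sex in the model it was -0.13 and -0.10, and arrays with Y-linked signal differed from the rest within groups by -0.51 ± 0.21 (SE). Apln was at 9.51, 8.99, 9.10 and 8.90 in control, 8.80, 8.83, 8.53 and 8.16 in Nkx2-5Δcomp and 8.52, 9.51, 8.39 and 7.77 in Nkx2-5Δtrab. All 4 Nkx2-5Δcomp arrays of Apln were under all controls, 7 of 8 mutant arrays were, and the means differed from control by -0.55 and -0.58 in Nkx2-5Δcomp and Nkx2-5Δtrab (limma, adjusted p = 0.456 and 0.386). Without the 3 arrays these differences were -0.31 and -0.32.

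The changes of Pgf, Angpt2, Flt4 and Aplnr also moved when sex was added to the model. Within groups, arrays with Y-linked signal differed from the rest by 0.70 ± 0.29 (log2, SE) for Pgf, -0.47 ± 0.28 for Angpt2, -0.22 ± 0.06 for Flt4 and -1.015 ± 0.865 for Aplnr. With sex in the model the changes in Nkx2-5Δcomp became -0.71 for Pgf, 0.44 for Angpt2, 0.44 for Flt4 and -1.09 for Aplnr. Their adjusted p was 0.392, 0.589, 0.0584 and 0.659 in limma, and none of these was called.

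The genes named beside Aplnr were chosen after their values were seen. Pcdh12, a cadherin of endothelial cells, was among the 3 genes most like Aplnr over the 12 arrays and was at 8.39 to 8.60 on the 3 arrays against 9.26 to 10.92 on the others. Per1, a circadian clock gene, ran the other way, at 13.85 to 14.19 against 10.26 to 12.58. Dll4, a Notch ligand of tip cells that VEGF induces, was at 5.93 to 6.46 against 6.80 to 7.65. What sets these 3 arrays apart was not tested, and Aplnr is itself the gene by which they were picked. None of the 4 control mice had such values. All 3 arrays carried Y-linked signal, which was found on only 1 of the control arrays. The other arrays with that signal had Aplnr at 8.06 in control, 8.64 in Nkx2-5Δcomp and 9.03 in Nkx2-5Δtrab.

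**Figure D3:**
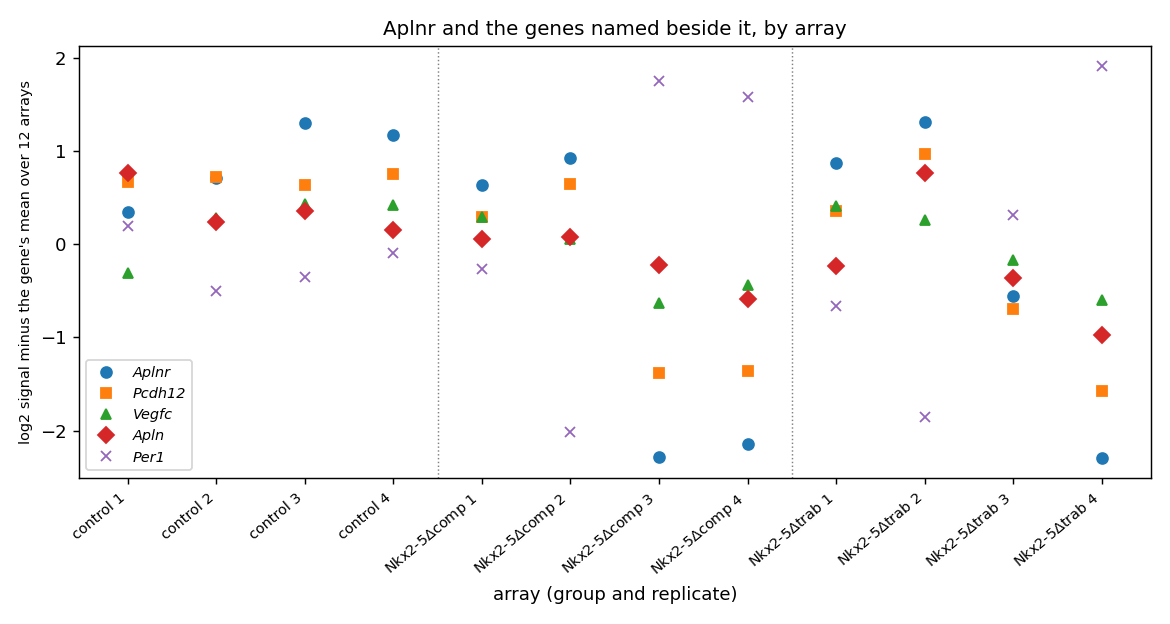
Log2 signal of Aplnr, Pcdh12, Vegfc, Apln and Per1 on each array, minus the gene's mean over the 12 arrays. Nkx2-5Δcomp replicates 3 and 4 and Nkx2-5Δtrab replicate 4 have the lowest Aplnr and the highest Per1.

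Among 15 other receptors and modulators of these pathways 14 were on the array and 11 passed the background filter. In Nkx2-5Δtrab 1 passed the test upward, in Nkx2-5Δcomp 1 downward, and for both mutants together 2 upward and 1 downward. Efnb2, an ephrin of arterial endothelium that takes part in receptor uptake, was 0.60 higher in Nkx2-5Δtrab (limma, adjusted p = 0.022) and 0.39 in Nkx2-5Δcomp (adjusted p = 0.17, limma). Nrp2, a co-receptor for Vegfc and Figf, was at 11.66, 11.58, 11.44 and 11.53 in control, 11.15, 11.14, 11.03 and 10.93 in Nkx2-5Δcomp and 11.25, 11.44, 11.28 and 11.29 in Nkx2-5Δtrab. All mutant arrays were below all controls, and the fall was 0.49 in Nkx2-5Δcomp (limma, adjusted p = 0.0241) against a difference of -0.24 in Nkx2-5Δtrab (adjusted p = 0.184). Ptprb, the phosphatase that restrains Tek, was 0.39 higher over both mutants (limma, adjusted p = 0.0352).

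The main signalling receptors did not pass the test. Kdr was 0.25 and 0.18 above control in Nkx2-5Δtrab and Nkx2-5Δcomp, Flt1 0.13 and 0.17, Tek 0.07 and 0.12, and Tie1 was at -0.10 and -0.004. Ccbe1, which helps to activate Vegfc, was at -0.32 and -0.26. Each of these values had an adjusted p of 0.367 or more in limma.

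Of 12 genes that VEGF induces in endothelial tip cells 11 passed the filter. Col4a1, a chain of basement membrane collagen, was 0.53 higher in Nkx2-5Δcomp (limma, adjusted p = 0.0439) and 0.34 in Nkx2-5Δtrab (adjusted p = 0.118, limma). Nid2, a basement membrane linker, was 0.45 higher over both mutants (limma, adjusted p = 0.0456). Both called genes encode basement membrane proteins, as do Col4a2 (0.43 and 0.57 in Nkx2-5Δtrab and Nkx2-5Δcomp), Nid1 (-0.01 and -0.05) and Lamb1 (-0.04 and -0.11), which did not pass. Esm1, a proteoglycan secreted by tip cells, was at 1.09 and 0.83 and Dll4 at -0.31 and -0.43, also without a call. The 3 arrays that stood apart held the 3 lowest Dll4 values, at 5.93 to 6.46 against 6.80 to 7.65 on the other 9. They were also the lowest of their own groups for Esm1. Of 23 measured genes of oxygen sensing and hypoxia, 0 were called by limma in any comparison, while 3 had an unadjusted p under 0.05 in Nkx2-5Δtrab, 4 in Nkx2-5Δcomp and 4 over both. Of all 24593 probes, 3999 (16.3%) had such a p in Nkx2-5Δtrab, 3321 in Nkx2-5Δcomp and 4380 (17.8%) over both. These are the background for such counts. The median change of the hypoxia list was 0.07 in Nkx2-5Δtrab and 0.03 in Nkx2-5Δcomp.

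**Figure D4:**
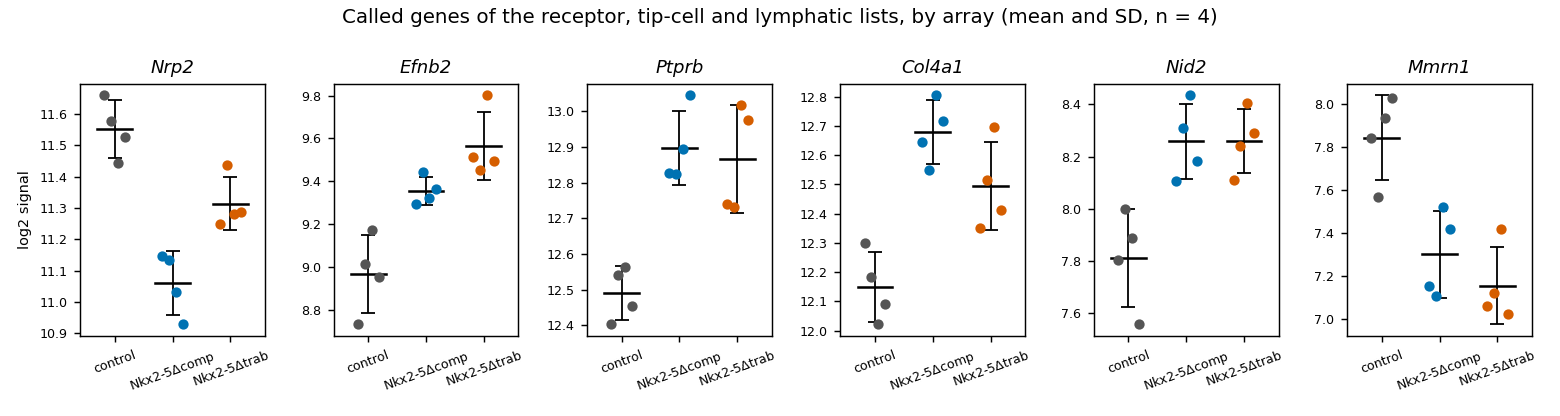
Log2 signal of 6 genes of the receptor, tip-cell and lymphatic lists that passed the test in at least 1 comparison, by array (points), with mean and SD, n = 4. The mutant arrays lie below all controls for Nrp2 and Mmrn1 and above them for the other 4 genes.

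Markers of other cells moved with Figf, and their part in its rise was not tested. Among 6 macrophage markers 3 rose in Nkx2-5Δtrab (Csf1r, Cd68 and C1qa) and 1 in Nkx2-5Δcomp (Csf1r), and the summed signal was 12.96 to 13.28 in control, 13.69 to 13.79 in Nkx2-5Δcomp and 13.88 to 14.11 in Nkx2-5Δtrab. Among 6 fibroblast markers Dcn rose in each mutant and Tcf21 over both together, with summed signals of 15.84 to 15.97, 16.30 to 16.49 and 16.17 to 16.42 in the same order. Among 5 endocardial markers Cytl1 rose in each mutant and Npr3 in Nkx2-5Δtrab, while Gfra2 was at -0.92 and -0.63 in Nkx2-5Δtrab and Nkx2-5Δcomp, Tmem108 at -0.14 and 0.07 and Plagl1 at 0.03 and 0.25, none of them called. The endocardial sums were 10.61 to 11.09, 11.96 to 12.43 and 11.84 to 12.84, higher in the mutants as were Cytl1 and Npr3 and unlike Gfra2. These 3 sums did not overlap between control and either mutant, as was so for Figf. The tip-cell sum, higher in the mutants, and the lymphatic sum, lower in them, did not overlap control either. Each of the 3 sums mostly repeats its brightest gene. In control the means of these genes were 12.24 for Csf1r in a mean sum of 13.06, 15.73 for Dcn in 15.91 and 10.12 for Cytl1 in 10.88. The sum of 10 blood endothelial markers was 15.39 to 15.68 in control, 15.59 to 15.87 in Nkx2-5Δcomp and 15.52 to 15.67 in Nkx2-5Δtrab. Of these 10 markers 0 were called by limma, and 3 and 4 had an unadjusted p under 0.05 in Nkx2-5Δtrab and Nkx2-5Δcomp. Of all 24593 probes, 3999 (16.3%) and 3321 had such a p in the same order. Of 7 pericyte markers Pdgfrb and Vtn were called in Nkx2-5Δtrab, at 0.37 and -0.88, and of 3 atrial markers Sln, at 3.80. In Nkx2-5Δcomp these genes were at 0.41, -0.655 and 3.33, without a call (limma, adjusted p = 0.0514, 0.0964 and 0.0514). Over both mutants together each of them was called. The other atrial markers, Myl4 and Myl7, were at -0.085 and -0.12 in Nkx2-5Δtrab and at 0.086 and 0.0001 in Nkx2-5Δcomp. No marker of smooth muscle, adipocytes, skeletal muscle or erythroid cells was called by limma in either mutant against control, while at an unadjusted p under 0.05 there were 0 skeletal and erythroid markers in either, 3 of 4 smooth muscle markers in Nkx2-5Δcomp and 2 of 5 adipocyte markers in Nkx2-5Δtrab.

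The 3 patterns most like Figf over the 12 arrays, among 18014 genes, were those of a probe with no gene name (A_55_P2093231, Pearson r = 0.945), of Cd79b (0.933), a chain of the B cell receptor, and of Rps6ka1 (0.930), a kinase of growth factor signalling. The 12 arrays share the group difference, and after the group means were taken out the values were 0.62, 0.805 and 0.5. They describe likeness only.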

How the data were processed

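The members and the gene lists were chosen with earlier results of these data known. Per the labels, Cy3-labelled RNA was hybridised to one-colour arrays and read with Agilent Feature Extraction 10.5. The deposited scanner files hold linear intensity values, background-subtracted by that software. The authors' table holds log2 values, quantile normalized and filtered, for 22114 spots, and correlated at 0.997 to 0.998 with the scanner values; it served as an alternative. From the scanner files, log2 processed signals were quantile normalized without control spots, spots flagged as outliers were left out, spots of a probe were averaged, and probes well above background on 3 of 4 arrays of any group were kept (24593). A gene was read from its brightest probe. A model with 3 group means was fitted with limma 3.58.1 (R 4.3.3), in place of the SAM of the study's methods, with Benjamini-Hochberg adjustment and calls under 0.05; 7 probes lacked a value. Single values had an exact two-sided permutation test. The number of arrays, 4 per group, limits the precision. In simulated arrays of the comparison of Nkx2-5Δcomp with control, 67 of 100 probes changed by 1 on the log2 scale and 89 of 100 changed by 2 were called, with 7 false calls. Marker sums are log2 of summed linear signals. Sex was read from the mean of the Y-linked genes Ddx3y, Kdm5d and Uty. Named were all members, all called list genes and the 3 genes most like a called member. Alternatives covered the scaling, background correction, filter, the authors' values, pairs of groups, replicate block, sex, array weights and each array left out.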

Additional observations from a re-analysis of the deposited data

Results flagged for a closer look

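Of 30 combinations of member and group, 1 had an array far from the other 3, and chance alone sets apart about 1 in 20. Pgf in Nkx2-5Δtrab replicate 4 was at 7.551 (log2), against 6.22 to 6.31 on the other arrays of that group. No member had a call for the difference between the mutants.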

How the results depend on the processing

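The rise of Figf in Nkx2-5Δtrab and in both mutants together passed the test under every alternative run, with changes of 1.02 to 1.24 and 0.87 to 1.12 (adjusted p 0.00314 to 0.0334 and 0.00267 to 0.0269, limma), so the count of members called stayed at 1 there. For Nkx2-5Δcomp the count fell to 0 with the 75th percentile scaling, no filter, 2 groups only, the replicate block, the sex covariate, without each replicate in turn (0 to 0) and without the 3 arrays that stood apart, an alternative chosen after seeing the data. Probes called in Nkx2-5Δtrab against control (411) became 198 with no filter, 265 with 2 groups only, 749 with array weights, 252 without the 3 arrays and 151 to 717 without a replicate (151 without Nkx2-5Δtrab replicate 3, 717 without Nkx2-5Δtrab replicate 2). Those in Nkx2-5Δcomp (149) became 244 with normexp, 257 with array weights, 59 without the 3 arrays and 85 to 189 without a replicate. For both mutants together (465) they became 257 with no filter, 855 with array weights, 207 without the 3 arrays and 212 to 806 without a replicate. Between the mutants (0) there were 1 with the 75th percentile, 2 with no filter, 1 with the replicate block and 0 to 1 without a replicate. The 75th percentile scaling split the Nkx2-5Δtrab calls as 257 higher and 238 lower, against 262 and 149. With group means removed, 3 of 12 same-numbered pairs of arrays correlated over 0.1, and 6 arrays correlated best with their own number. The 3 pairs were all between the mutants (0.374, 0.308 and 0.476 for replicates 1, 2 and 4), while pairs with control were at 0.079 or lower. Whether the numbers pair mutant mice was not tested. With the replicate block Figf was called in Nkx2-5Δtrab (adjusted p = 0.0334, limma) and not in Nkx2-5Δcomp (0.111). Vegfb in Nkx2-5Δcomp turned from -0.02 to 0.056 with normexp and -0.046 to 0.013 without a replicate. Angpt1 in Nkx2-5Δtrab turned from 0.08 to -0.096 with array weights and ranged from -0.369 to 0.437 without a replicate, and from -0.181 to 0.625 in Nkx2-5Δcomp, while Angpt2 in Nkx2-5Δcomp ranged from -0.024 to 0.439. No other change of a member given above changed its sign or its side of the threshold. The causes were not tested.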
